A study of Mus musculus with 12 samples.

Results

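Neurons answer strong synaptic input by transcribing a rapid set of transcription factor genes and a set of effector genes. Products of the effector genes act at the synapse itself. The effectors studied here cover several such roles. Arc protein moves AMPA-type glutamate receptors off the postsynaptic membrane, and the short form of Homer1 loosens the scaffold that ties metabotropic glutamate receptors to their partners. The neuronal pentraxins gather AMPA receptors at the cell surface, Rheb is a small GTPase that switches on mTORC1, and Plk2 is a kinase that weakens overactive synapses. Ptgs2 (cyclooxygenase-2), Inhba (a subunit of activin A) and Scg2 (secretogranin II) make signals that leave the cell.

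Values of 9 such genes, Arc, Homer1, Nptx2, Nptx1, Rheb, Plk2, Ptgs2, Inhba and Scg2, were taken by gene symbol from a table of 17202 genes, in which each of the 9 symbols was found on 1 row. The table holds cortex RNA sequencing of 12 male mice, a mouse model of Williams-Beuren syndrome and its controls. CD mice carried a heterozygous deletion running from Gtf2i to Fkbp6 on chromosome 5, and WT mice were their wild-type counterparts. Both genotypes came from crosses with Thy1-YFP transgenic mice, whose transgene labels pyramidal neurons, on a C57BL/6J background. Mice drank either vehicle (VEH) or curcumin together with verapamil, a blocker of L-type calcium channels (VERCUR). This gave 4 groups of 3 mice, which are named VEH-WT and VERCUR-WT for wild-type and VEH-CD and VERCUR-CD for deletion mice. The labels gave 60 mg of curcumin and 10 mg of verapamil per kg per day, started at 8 weeks of age for 1 month, with an end at 16 weeks. They called the controls untreated, while the methods described water with DMSO for these mice and gave a lower verapamil dose and a younger end age. The tissue was whole frontal cortex, so fewer cells of a type and less RNA per cell could not be told apart. The study did not single out these genes.

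The deposited unit was the normalized count, which is the number of reads counted on a gene divided by a factor for that mouse. Between 40290000 and 56480000 reads per mouse were counted, as derived from the step between low values. Each of the 9 genes had at least 407.9 normalized counts in the 12 mice. Counting error was therefore small beside the spread between mice in a variable gene such as Arc. It was closer to that spread in a steady gene such as Rheb, whose coefficient of variation (CV) was 1.8% in VEH-WT mice. As a check of genotype, Gtf2i, Limk1 and Baz1b, which lie in the deleted interval, stood between 0.39 and 0.55 of the VEH-WT mean in the 6 CD mice and between 0.92 and 1.10 in the 6 WT mice. Markers of excitatory cortical neurons were present in all mice, with sums over 4 genes (Slc17a7, Neurod6, Tbr1 and Camk2a) from 273942 to 344661 normalized counts. Tests used limma on log2(normalized count + 1) over 17111 genes, a scale that slightly understates the fold change of low genes. A gene was called when its Benjamini-Hochberg adjusted p was under 0.05 and its fold change was past the thresholds of the study (under 0.75, or as far above 1).

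Cyclic AMP and calcium signals reach many activity-induced genes through CREB, a factor that binds the cAMP response element (CRE). RefSeq promoter windows of build GRCm38.p6, from 250 bases before to 50 bases after a transcription start, were given for 6 of the 9 genes (7 windows). Arc, Nptx1 and Nptx2 had none. The 120 bases before the start are shown for the 2 genes with the complete element, Scg2 and Plk2, for Homer1, with 3 matches to its core, and for Inhba, with no match. For Ptgs2, whose match to the core lies past the annotated start, the first 30 bases from that start are shown. Capitals mark the element or its core, on either strand. The windows are Scg2 at chr1:79440027-79440146 (minus strand), Plk2 at chr13:110394924-110395043 (plus), Homer1 at chr13:93303637-93303756 (plus), Inhba at chr13:16011731-16011850 (plus) and Ptgs2 at chr1:150100031-150100060 (plus).
Scg2: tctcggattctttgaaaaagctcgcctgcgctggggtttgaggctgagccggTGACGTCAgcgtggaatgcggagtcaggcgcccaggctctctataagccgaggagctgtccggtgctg
Plk2: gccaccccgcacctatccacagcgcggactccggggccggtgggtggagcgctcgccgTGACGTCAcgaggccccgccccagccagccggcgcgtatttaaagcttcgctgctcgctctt
Homer1: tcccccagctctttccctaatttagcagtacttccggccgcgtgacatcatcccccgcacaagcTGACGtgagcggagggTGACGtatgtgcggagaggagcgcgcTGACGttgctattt
Inhba: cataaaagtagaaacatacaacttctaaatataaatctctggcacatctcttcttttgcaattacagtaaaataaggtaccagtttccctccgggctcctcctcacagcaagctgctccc
Ptgs2: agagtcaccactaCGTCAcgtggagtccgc

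The complete CRE (TGACGTCA) began 68 bases before the RefSeq start in Scg2 and 62 bases before it in Plk2. This 8-letter element was present in 1.79% of the 32851 promoters of the table. The core (TGACG, searched on both strands and part of each complete element) was in the windows of 5 genes, Scg2, Plk2, Homer1, Rheb and Ptgs2, and in 20.81% of all promoters. In Homer1 it began 56, 40 and 14 bases before the start, in Rheb 247 bases before it, and in Ptgs2 14 bases after it. None of the 7 windows held an AP-1 site (TGANTCA, in 7.81% of all promoters), an EGR site (GCGNGGGCG, 5.55%), a serum response element (1.63%) or a MEF2 site (0.56%). A match or its lack describes these letters in these windows only.

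The genes lie on several chromosomes (GENCODE M21 annotation of GRCm38). Arc (ENSMUSG00000022602.14) spans 74669083 to 74672570 on chromosome 15, minus strand. Homer1 (ENSMUSG00000007617.18), Plk2 (ENSMUSG00000021701.8) and Inhba (ENSMUSG00000041324.14) are on the plus strand of chromosome 13, at 93299635 to 93405129, 110395046 to 110400844 and 16011851 to 16031621. Ptgs2 (ENSMUSG00000032487.8, plus strand, 150100031 to 150108227) and Scg2 (ENSMUSG00000050711.7, minus strand, 79434669 to 79440120) are on chromosome 1, and Nptx1 (ENSMUSG00000025582.4, minus strand, 119538719 to 119547753) is on chromosome 11. Nptx2 (ENSMUSG00000059991.7, plus strand, 144545902 to 144557478) and Rheb (ENSMUSG00000028945.9, minus strand, 24802823 to 24842624) share chromosome 5 with the deletion. Nptx2 is 9.29 Mb from Fzd9 and Rheb is 109.4 Mb from Gtf2i, so neither is part of the deletion. No exon of the 9 genes overlapped an exon of another annotated gene. Gene counts do not separate the short and long transcripts of Homer1. The RefSeq starts of the promoter windows can differ from the ends of these spans. The printed Homer1 window and the complete CRE of Scg2 lie inside the spans given here.

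Per kb of exon, Arc was the most abundant of the 9 genes on average, with 4682 ± 3102 normalized counts per kb (SD over 12 mice). This order came from VEH-WT mice, where Arc had 8699 per kb and Nptx1 4858. Nptx1 had more than Arc in VEH-CD (4351 against 2014), VERCUR-WT (4381 against 3877) and VERCUR-CD mice (4318 against 4139), and in VEH-CD mice Arc was also below Scg2 (3130.2). Over the 12 mice Nptx1 had 4477 ± 320.7, Scg2 with 3271 ± 298.0, Plk2 with 1768 ± 153.6 and Nptx2 with 1323 ± 174.3. Homer1 had 905.7 ± 221.2 normalized counts per kb, Rheb 546.6 ± 28.61, Inhba 133.8 ± 15.85 and Ptgs2 124.7 ± 28.11. The ranges over the 12 mice overlapped between Arc and Nptx1, between Plk2, Nptx2 and Homer1 as neighbours, and between Inhba and Ptgs2, so those orders were not separated by the spread between mice. In the ranking of 17193 genes by level per kb, Arc stood at the 97.7th percentile and Ptgs2 at the 44.9th.

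Arc levels were lowest on average in VEH-treated CD mice and differed widely between mice. Arc had 20198, 34120.1 and 25465 normalized counts in the VEH-WT mice 1, 2 and 3. In VEH-CD mice it had 2658, 7209.8 and 8603. It had 14339, 1948 and 19267 in VERCUR-WT mice, and 16726, 8537 and 12694 in VERCUR-CD mice. All 3 VEH-WT mice lay above the other 9, whereas a single VERCUR-WT mouse (mouse 2) had the lowest value of all. The group means were 26594 ± 7029.6 in VEH-WT, 6157 ± 3109 in VEH-CD, 11851 ± 8924 in VERCUR-WT and 12652 ± 4094 in VERCUR-CD mice (SD, n = 3).

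Homer1 had 11354, 15344 and 12928 normalized counts in VEH-WT mice, and 7617, 11934 and 8086 in VEH-CD mice. In VERCUR-WT mice it had 10575, 14477 and 9203, and in VERCUR-CD mice 8629.8, 12340.2 and 7672. Mouse 2 was the highest of its group in each of the 4 groups, and the groups overlapped. The group means were 13209 ± 2009.5, 9212 ± 2369, 11418 ± 2736 and 9547 ± 2466 in the same order (SD, n = 3).

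Of the pentraxins, Nptx2 (also called Narp) is the one known for induction by activity, and Nptx1 is its more steadily expressed relative. Nptx2 had 3802, 4241 and 3471 normalized counts in VEH-WT mice and 2759, 2973 and 3705 in VEH-CD mice. It had 2848, 3420.4 and 3101 in VERCUR-WT mice and 3461, 3523 and 2954 in VERCUR-CD mice. Only the VERCUR-WT mice lay wholly below the VEH-WT mice. Nptx1 had 24189, 26435 and 25413 normalized counts in VEH-WT mice and 21498, 23761 and 22837 in VEH-CD mice. It had 23600.4, 23517 and 21446 in VERCUR-WT mice and 20549.8, 24162 and 22867 in VERCUR-CD mice. As for Arc, the 3 VEH-WT mice had the highest Nptx1 values of the 12, though narrowly, with 24189 in the lowest of them against 24162 in VERCUR-CD 2.

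Scg2, a granin stored in dense-core vesicles and cut into the peptide secretoneurin, had 8821, 9656 and 8742 normalized counts in VEH-WT mice and 7451, 7960.3 and 8207 in VEH-CD mice. It had 8190.1, 7855 and 9174 in VERCUR-WT mice and 8082, 7225 and 7343 in VERCUR-CD mice. Both CD groups lay wholly below VEH-WT mice, and VERCUR-WT mice overlapped them.

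The other 4 genes overlapped between all groups. Rheb was the steadiest, from 3756 (VEH-CD 1) to 4496 (VERCUR-CD 2) normalized counts over the 12 mice, and Plk2 ran from 6677 (VERCUR-WT 2) to 9064 (VEH-WT 2). Ptgs2, the inducible cyclooxygenase of prostaglandin synthesis, ran from 407.9 (VERCUR-WT 3) to 884.4 (VEH-WT 2). Inhba ran from 699.6 (VERCUR-CD 3) to 1059.6 (VERCUR-WT 2).

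**Figure D1:**
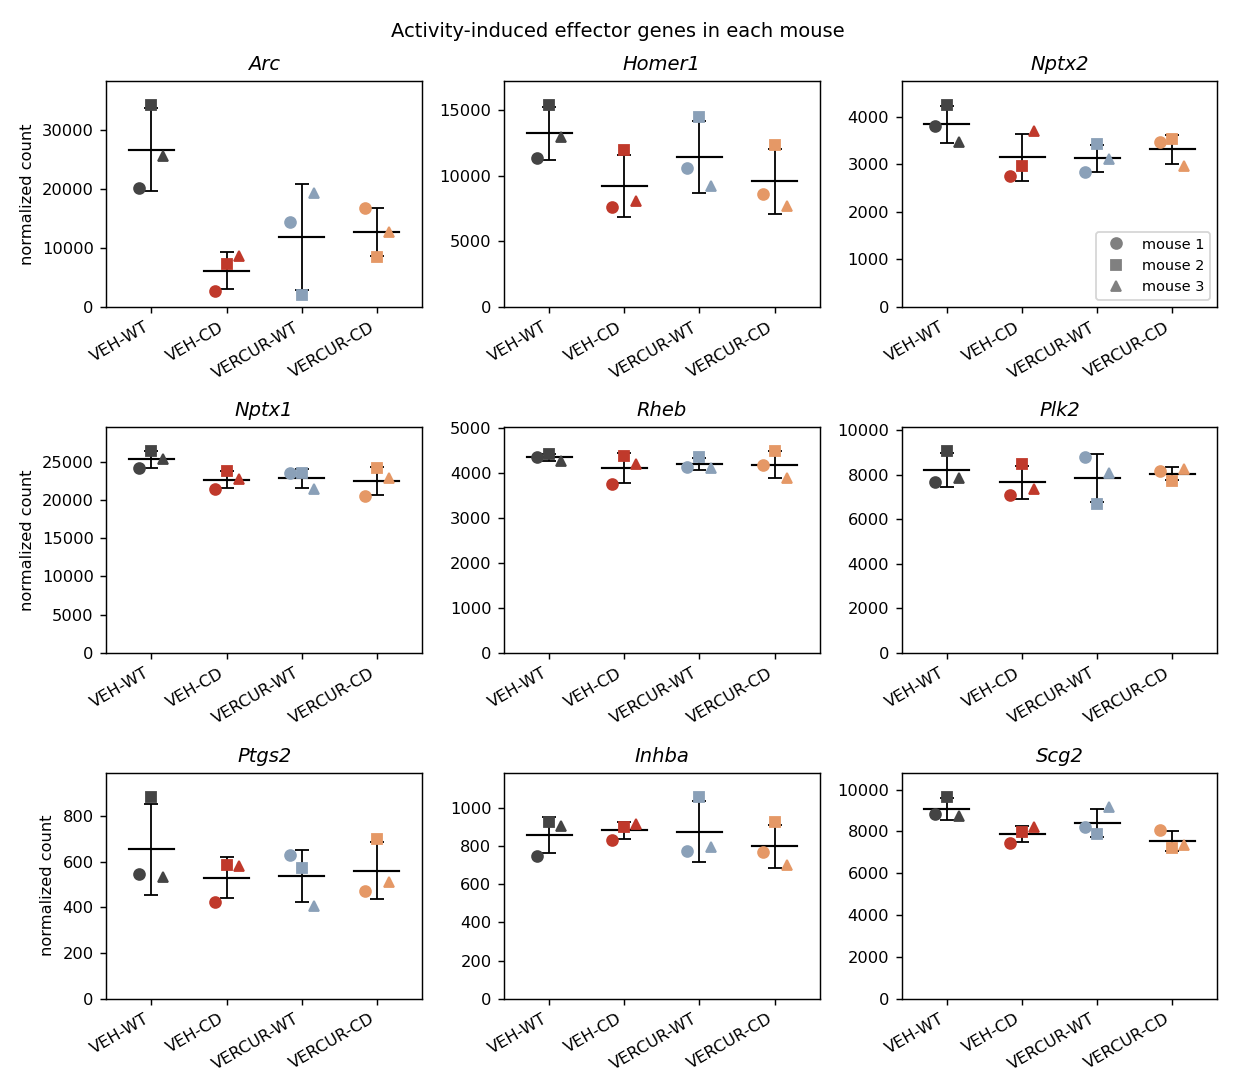
Normalized counts (linear axes from 0) of the 9 genes in each of 12 mice; symbols mark the mouse number, horizontal lines the group mean and bars the SD (n = 3 per group). Arc is at 20198 or more in VEH-WT mice and at 8603 or less in VEH-CD mice, while Rheb stays between 3756 and 4496 in all mice.

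Single mice stood out across several genes. VEH-WT 2 had the highest value in 7 of the 9 genes and was among the top 3 mice in 9. VEH-CD 1 was among the lowest 3 mice in 8 genes and the lowest in 3. Its summed level of 4 striatal neuron markers was 8285 normalized counts, against 3377 and 3221 in the other VEH-CD mice. Sums of 6953 in VEH-WT 3, 8716 in VERCUR-WT 3 and 6344 in VERCUR-CD 1 also stood above the rest of their groups. Arc was the lowest of its group in VEH-CD 1, the middle value in VEH-WT 3 and the highest in VERCUR-WT 3 and VERCUR-CD 1. The part of the striatal sum in the values of these mice was not tested. VERCUR-WT 2 went both ways, with the lowest Arc and Plk2, the highest Inhba and the second highest Homer1. Within groups, Arc had an SD of 1.055 on the log2 scale, which placed it 144th of 17111 genes. Ptgs2 (0.331) and Homer1 (0.320) also varied more than the median gene (0.144), while Scg2 (0.090), Nptx1 (0.086) and Rheb (0.082) varied less.

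The first comparison asked what the deletion alone did in VEH-treated mice. Values of 8 of the 9 genes were lower in VEH-CD than in VEH-WT mice, but none was called by limma, where 0.257% of all genes were (44 of 17111). Voom on recovered reads also called none of the 9. At an unadjusted p under 0.05, 5 of the 9 genes were lower, against 11.8% of all genes in either direction and 6.73% lower. This count rested on single mice: it was 1 without VEH-WT 2, 1 without VEH-CD 1 and 3 without VEH-CD 3. The median log2 fold change was -0.20 over the 9 genes and 0 over all genes. The VEH-CD values lay wholly below the VEH-WT values in 3 of the 9 genes (Arc, Nptx1 and Scg2), as they did in 11.4% of all genes.

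Arc had a log2 fold change of -2.24 (SE 0.69, 95% interval -3.74 to -0.75), or 0.211-fold, with an unadjusted p of 0.00656 and an adjusted p of 0.233 in limma. This call depended on how the spread was estimated. Without VERCUR-WT 2, a mouse outside the comparison that adds to the pooled spread, the adjusted p was 0.047 at the same log2 fold change. Arc was called in 2 of 26 alternatives, over which its adjusted p ran from 0.000121 to 0.608. When the value farthest from the median was removed wherever the CV of a group reached 20%, in the manner of the CV correction named by the study, Arc had -1.53 with an adjusted p of 0.000121 and Homer1 -0.74 with an adjusted p of 0.00138. That procedure narrows the spread within groups by design, so its p values are too small. It also raised the calls over all genes from 44 to 972.

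Homer1 had a log2 fold change of -0.54 (SE 0.21, adjusted p = 0.345) and Nptx2 of -0.29 (SE 0.12, adjusted p = 0.341) in limma. With sample weights estimated gene by gene, Homer1 was also called, at -0.61 with an adjusted p of 0.0479. Homer1 was called in 3 of 26 alternatives, over which its adjusted p ran from 0.00138 to 0.729. Scg2 had -0.20 (SE 0.07, adjusted p = 0.298) and Nptx1 -0.16 (SE 0.07, adjusted p = 0.391). The remaining log2 differences were -0.28 for Ptgs2, -0.10 for Plk2, -0.09 for Rheb and 0.04 for Inhba, whose intervals all included 0. Leaving out 1 mouse at a time moved Arc between -2.57 and -1.72 and Homer1 between -0.74 and -0.42.

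**Figure D2:**
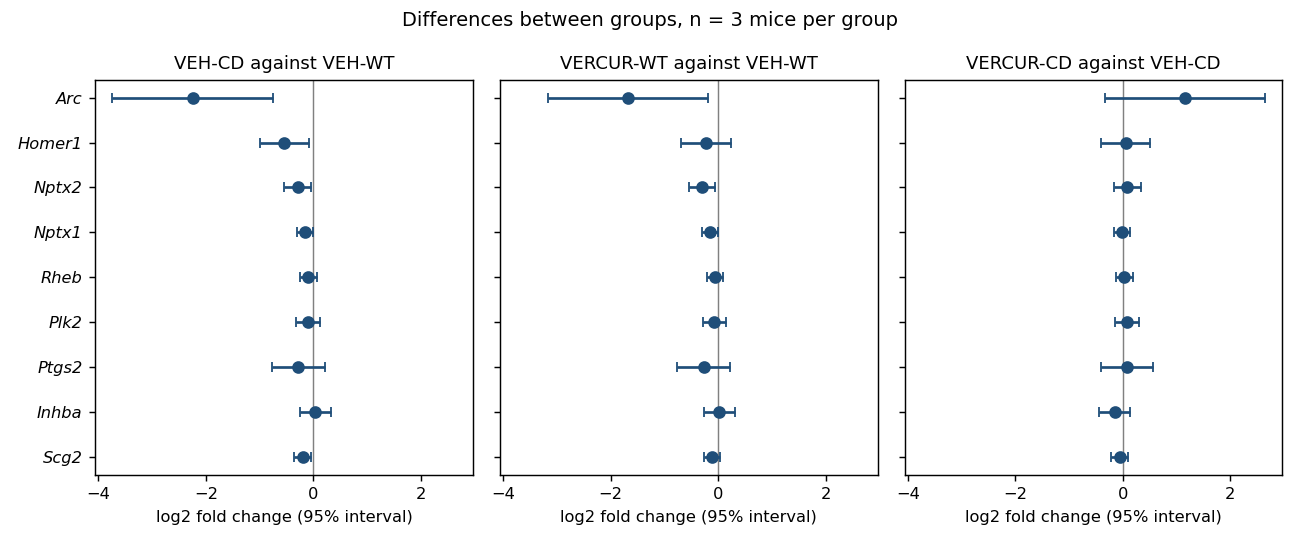
Log2 fold change of each gene with its 95% interval from limma (horizontal axis) in 3 comparisons, with 3 mice per group. The Arc interval is the widest in each panel; it lies below 0 in both comparisons with VEH-WT mice (-2.24 and -1.68) and includes 0 for VERCUR-CD against VEH-CD (1.15).

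VERCUR co-treatment of WT mice was compared with VEH-WT mice to see the effect of the drugs without the deletion. Values of 8 of the 9 genes were lower in VERCUR-WT mice, with a median log2 fold change of -0.15. No gene of the 9 and none of the whole table was called by limma (0% of 17111) or by voom. At an unadjusted p under 0.05 there were 2 of the 9 genes, Arc (-1.68, SE 0.69) and Nptx2 (-0.30, SE 0.12), against 5.22% of all genes, both with an adjusted p of 0.944. When VEH-WT 2 was left out the count was 0, and leaving out VEH-WT 3 or VERCUR-WT 2 made it 1. The Arc value rested largely on VERCUR-WT 2, and without that mouse it was -0.64. Nptx2 kept its direction in all 26 alternatives, from -0.37 to -0.22. Arc, Nptx2 and Nptx1 lay wholly below VEH-WT mice, as 5.25% of all genes did. This comparison and the first share the VEH-WT mice, of which VEH-WT 2 was among the top 3 of the 12 mice in all 9 genes.

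VERCUR-CD mice were compared directly with VEH-CD mice to see what the co-treatment did in the presence of the deletion. Arc was the gene of largest difference among the 9, with 12652 against 6157 normalized counts on average (log2 fold change 1.15, SE 0.69, 95% interval -0.34 to 2.65, adjusted p = 0.867 in limma). Leaving out 1 mouse gave 0.63 (without VEH-CD 1) to 1.48 (without VEH-CD 3). The groups overlapped, since VERCUR-CD 2 (8537) lay below VEH-CD 3 (8603). The other 8 genes had log2 fold changes from -0.15 (Inhba) to 0.08 (Nptx2), and 5 of them changed sign under at least 1 of 26 alternatives. None of the 9 genes and 0% of all genes were called by limma, and voom called none. None of the 9 reached an unadjusted p under 0.05, where 3.54% of all genes did, while 4 did with sample quality weights. With single values removed by CV, Arc was called at 0.89 (adjusted p = 0.017).

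Between the genotypes under co-treatment, VERCUR-CD against VERCUR-WT, which shares no mouse with the first comparison, the median log2 difference of the 9 genes was -0.01. None of the 9 was called, by limma (0.146% of all genes) or by voom, and none had an unadjusted p under 0.05 (4.1% of all genes); without VERCUR-WT 2, VERCUR-CD 1 or VERCUR-CD 2 the count was 1. Arc had 0.58 (SE 0.69), which turned to -0.45 without VERCUR-WT 2 and to -0.19 with single values removed. Scg2 had -0.15 (SE 0.07, unadjusted p = 0.0527, adjusted p = 1 in limma).

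The study judges recovery by comparing VERCUR-CD with VEH-WT mice. All 9 genes had lower values in VERCUR-CD mice, with a median log2 fold change of -0.20, and none was called by limma (0.199% of all genes) or voom. Scg2 (-0.27, SE 0.07, adjusted p = 0.333), Nptx1 (-0.17, SE 0.07, adjusted p = 0.512) and Homer1 (-0.49, SE 0.21, adjusted p = 0.562) had an unadjusted p under 0.05, against 8.68% of all genes. These 3 became 1 without VEH-WT 2 and 1 without VERCUR-CD 1, and 6 with sample quality weights. Arc had -1.09 (SE 0.69, adjusted p = 0.696), with a mean at 0.476 of that of VEH-WT mice. Arc, Nptx1 and Scg2 lay wholly below VEH-WT mice, as 7.33% of all genes did. Arc and Nptx1 were also wholly higher in VEH-WT mice than in the other 9 mice together, a pattern seen in 1.43% of all genes. With sample quality weights Homer1 was called at -0.70, but their estimation did not converge. With single values removed, Arc (-0.64) and Homer1 (-0.69) were called.

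The interaction of genotype and treatment asked whether the co-treatment acted differently in CD and WT mice. It was 2.83 on the log2 scale for Arc (SE 0.98, 95% interval 0.71 to 4.94, adjusted p = 0.816 in limma) and 0.38 for Nptx2 (SE 0.16, adjusted p = 0.816). These 2 genes had an unadjusted p under 0.05, as did 6.05% of all genes, and leaving out 1 mouse gave 1 or 2 genes. None of the 9 genes and 0% of all genes were called by limma, and voom called none. The Arc value was 1.80 without VERCUR-WT 2. It was called with single values removed, at 1.34 (adjusted p = 0.00904).

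Other activity-induced genes, and genes that act with the 9, were described from lists. The 14 rapid transcription factors (Fos, Jun, Egr, Nr4a and related genes), which are transcribed within minutes of activity, were lower in 14 of 14 cases in VEH-CD mice, with a median log2 fold change of -1.12 against 0 over all genes. None was called, and 10 had an unadjusted p under 0.05, all lower (6.73% of all genes). Egr4 had the smallest p, with -1.21 (SE 0.23, adjusted p = 0.0570 in limma). Its normalized counts were 2995 to 5947 in VEH-WT mice and 1484 to 2366 in VEH-CD mice, without overlap. Without VEH-WT 1, VEH-CD 2 or VERCUR-CD 2 its adjusted p was 0.016, 0.0427 or 0.0328. The other 9 fits that left out 1 mouse did not call Egr4. The 14 factors were lower in VERCUR-WT than in VEH-WT mice too, with a median of -0.71. Of these, 6 had an unadjusted p under 0.05, all lower, against 5.22% of all genes in either direction. Both comparisons share the VEH-WT mice. In VERCUR-CD against VEH-CD mice 13 were higher and 1 lower, with a median of 0.28, where 49.2% of all genes were lower. Of the 14, 1 had an unadjusted p under 0.05 in limma (3.54% of all genes). Against VEH-WT mice all 14 were lower in VERCUR-CD mice, with a median of -0.82. Of these, 8 had an unadjusted p under 0.05 in limma, all lower, against 8.68% of all genes in either direction. This comparison shares the VEH-WT mice as well.

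In single mice, the median of the 14 factors relative to the VEH-WT mean was -1.50, -0.70 and -1.05 on the log2 scale in VEH-CD mice. It was -0.60, -0.89 and -0.44 in VERCUR-WT and -0.63, -1.02 and -0.84 in VERCUR-CD mice. Arc was at -3.29 in VEH-CD 1 and at -3.74 in VERCUR-WT 2, the mice with the lowest factor median of their groups. Homer1 did not share the low value of VERCUR-WT 2, where it was at 0.14.

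**Figure D3:**
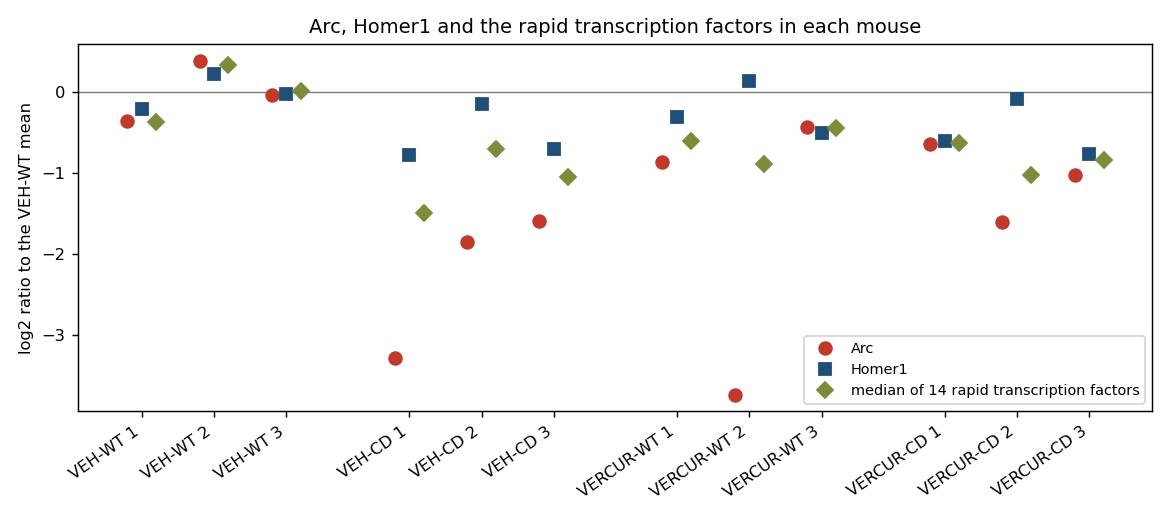
Log2 ratio to the VEH-WT mean (vertical axis) of Arc, Homer1 and the median of 14 rapid transcription factors in each of the 12 mice. Arc reaches -3.29 in VEH-CD 1 and -3.74 in VERCUR-WT 2, while Homer1 in VERCUR-WT 2 is at 0.14.

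The 14 other activity-induced effectors (Bdnf, Vgf, Nrn1 and related genes) were lower in 13 and higher in 1 case in VEH-CD mice, with a median log2 fold change of -0.28. None was called and 7 had an unadjusted p under 0.05, all lower (6.73% of all genes). Gem, a small GTPase that restrains calcium channels, had -1.12 (SE 0.27, adjusted p = 0.144). Among the 8 factors that bind control elements of activity-induced genes, 5 were lower and 3 higher, with a median of -0.06. Srf, which binds serum response elements, had the smallest p of these at -0.40 (SE 0.08, adjusted p = 0.0697 in limma). Without VEH-WT 1 or VEH-CD 2 its adjusted p was 0.0406 or 0.0427. The other 10 fits that left out 1 mouse did not call Srf.

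Lists of genes that act with the 9 had medians near 0, and single genes in them differed more. The 4 Arc partners had a median log2 fold change of -0.01 in VEH-CD against VEH-WT mice, from -0.08 to 0.03. The 8 Homer1 paralogs and ligands had -0.06, with Itpr1, an intracellular calcium channel bound by Homer proteins, at 0.16 (SE 0.12). The pentraxin receptor and the AMPA receptor subunits (5 genes) had 0.03, with Gria1 at 0.09 (SE 0.07). The 7 Rheb regulators and targets had -0.02, and Eif4ebp1, the translation repressor that mTORC1 phosphorylates, had 0.57 (SE 0.14, adjusted p = 0.159). The 5 Plk2 paralogs and substrates had 0.03, and Plk3, itself an activity-induced gene, had -0.57 (SE 0.18, adjusted p = 0.261). Of 9 genes of prostaglandin synthesis and receptors 8 were tested (Ptger2 was not), with 0.06, and the receptor Ptger4 had -0.49 (SE 0.28). The 6 genes of activin and inhibin had -0.05, and Fst, which encodes the activin-binding follistatin, had -0.72 (SE 0.25, adjusted p = 0.280). The 6 granin and processing genes had 0.02, with the convertase Pcsk2 at 0.07 (SE 0.06). No gene of these lists was called in any of the 6 comparisons by limma. The study used its own CV correction and test. From these and the preceding lists it gives Bdnf, Gem, Nr4a1, Plk3 and Eif4ebp1, among others, as changed between VEH-CD and VEH-WT mice. The source of this difference in calls was not tested.

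**Figure D4:**
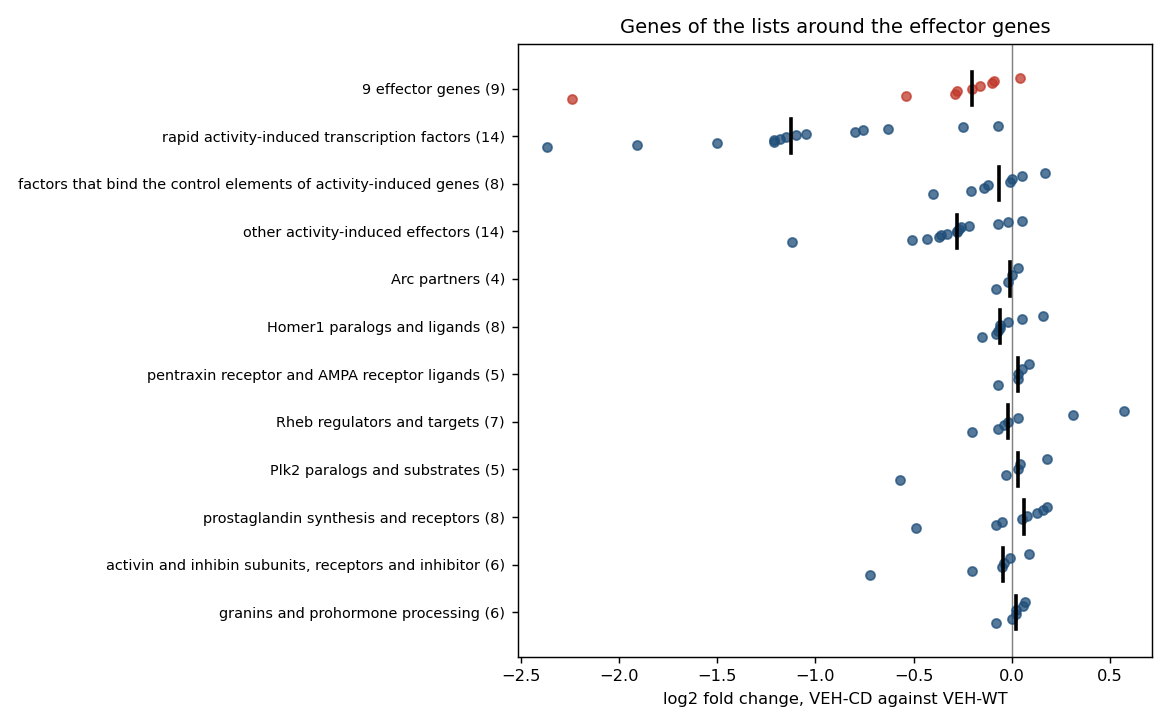
Log2 fold change between VEH-CD and VEH-WT mice (horizontal axis) of the 9 effector genes and of the genes of 11 lists; each point is a gene, black bars are medians and numbers of genes tested are in parentheses. The rapid transcription factors (median -1.12) lie farther to the left than the 9 effectors (median -0.20), and the medians of the lists of partner genes lie around 0.

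Markers of other cell types were set beside these values. The summed level of 5 interneuron markers (Gad1, Gad2, Pvalb, Sst and Vip) was 36814 to 39787 normalized counts in VEH-WT mice, above the 32889 to 34931 of VEH-CD, the 33933 to 36271 of VERCUR-WT and the 34275 to 34624 of VERCUR-CD mice. Like Arc and Nptx1, it was wholly higher in VEH-WT mice than in the other 9. Among the 5 markers this held for Gad1 alone (15179 or more against 14843 or less), while Gad2, Pvalb, Sst and Vip overlapped. The part of the sum in the values of Arc and Nptx1 was not tested. The 4 markers of striatal neurons (Drd1, Drd2, Adora2a and Rgs9) summed to 3190.2 to 6953 in VEH-WT, 3221 to 8285 in VEH-CD, 1117 to 8716 in VERCUR-WT and 1085 to 6344 in VERCUR-CD mice, with overlap between all groups. In VERCUR-WT 1 and 2 and VERCUR-CD 2 and 3 the sum was 1085 to 1161, below every VEH mouse. The median log2 fold change of the 4 markers was -1.02 in VERCUR-WT against VEH-WT and -1.55 in VERCUR-CD against VEH-CD mice. None of these differences had an unadjusted p under 0.05 in limma, and their part in the values of the 9 genes was not tested. Sums for astrocytes, oligodendrocytes, microglia, endothelial cells, choroid plexus, meningeal fibroblasts and red blood cells also overlapped between VEH-WT and VEH-CD mice. Of the 3 markers of hippocampal dentate neurons, Prox1 and C1ql2 were in the table and Dsp was not. They summed to 483.8 to 678.8 in VEH-WT, 440.8 to 490.9 in VEH-CD, 419.6 to 537.3 in VERCUR-WT and 519.7 to 691.6 in VERCUR-CD mice. Prox1 overlapped, with 443.4 to 638.8 in VEH-WT and 486.0 to 669.1 in VERCUR-CD mice. C1ql2 was higher in VEH-WT mice (34.75 or more) than in the other 9 (34.28 or less), as Arc and Nptx1 were. These 2 C1ql2 values were closer together than the step between low values, which was 1.1209 in VEH-WT 1 and 1.1426 in VEH-CD 1. The log2 fold change of C1ql2 was -0.38 (SE 0.26) in VEH-CD against VEH-WT mice. It was -1.0 (SE 0.26, adjusted p = 0.867 in limma) in VERCUR-WT against VEH-WT mice. The part of C1ql2 in the values of Arc and Nptx1 was not tested. No marker was at 0.

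The 9 genes varied with each other to different degrees over the 12 mice. Of 36 pairs, 34 had a positive Pearson r, with a median of 0.41. With p values from 100000 permutations, two-sided and Benjamini-Hochberg adjusted over the 36 pairs, 4 pairs passed 0.05. These were Homer1 and Rheb (r = 0.82, permutation p = 0.00047, adjusted p = 0.0169), Nptx1 and Ptgs2 (r = 0.80, permutation p = 0.0017, adjusted p = 0.0241), Homer1 and Nptx1 (r = 0.79, permutation p = 0.00201, adjusted p = 0.0241), and Arc and Plk2 (r = 0.76, permutation p = 0.00468, adjusted p = 0.0421). Their Spearman rho was 0.81, 0.69, 0.76 and 0.50, with permutation p of 0.00204, 0.0171, 0.00506 and 0.105, and no pair passed after adjustment. Without the 2 mice farthest from the median of the first gene, r was 0.75, 0.70, 0.80 and 0.34, and no pair passed. The relation of Arc and Plk2 thus rested on VEH-CD 1 and VERCUR-WT 2. Within groups, as residuals from the group means, r was 0.81, 0.84, 0.72 and 0.79, with adjusted p of 0.111, 0.111, 0.151 and 0.151 from the exact permutation test over 1296 orders. Arc and Homer1 had r = 0.14. The lowest r was -0.42, between Arc and Inhba.

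**Figure D5:**
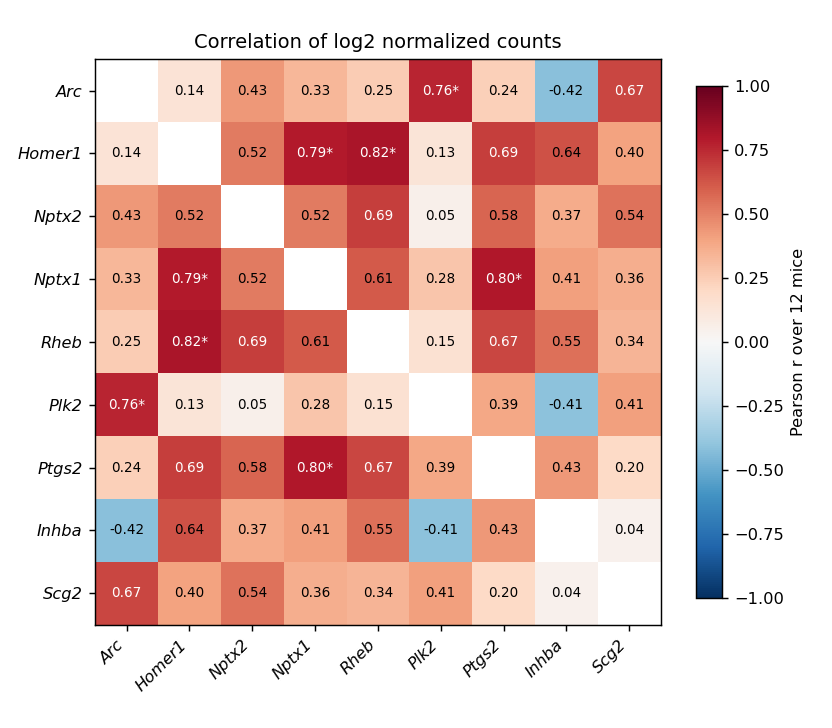
Pearson r of log2 normalized counts over 12 mice for each pair of the 9 genes, from blue (-1) to red (1); asterisks mark the 4 pairs with an adjusted permutation p under 0.05. Homer1, Nptx1, Rheb and Ptgs2 have an r of 0.61 or more with each other, while Arc has its highest r with Plk2 (0.76) and its lowest with Inhba (-0.42).

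As a description, the genes of the whole table most like the mean of the 9 standardized genes over the 12 mice were Dnaja1 (r = 0.98), Zscan22 (0.94), Hspa4 (0.93), Dnaja4 (0.93) and Gm43737 (0.93). Dnaja1, Dnaja4 and Hspa4 encode chaperones or cochaperones. For single genes, the closest were Csrnp1 for Arc (r = 0.97), Adam19 for Homer1 (0.97), Serpind1 for Nptx2 (0.87) and Wipf2 for Nptx1 (0.95). They were Rhbdl2 for Rheb (0.93), Morc2a for Plk2 (0.92), Zcchc2 for Ptgs2 (0.91), Scn2b for Inhba (0.86) and Katna1 for Scg2 (0.96). These are the highest of 17111 values each over 12 mice that share libraries and groups.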

How the data were processed

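Cortex RNA was sequenced by the authors on an Illumina HiSeq2000 as 100-nt paired-end reads and aligned to GRCm38 with STAR 2.5.3a. They deposited the gene counts divided by 1 factor per sample; these values are not raw counts, and the counting program, annotation and normalization are not given in the sources used here. The deposited values hold decimal commas. Low values were whole multiples of 1 step per sample, with a tolerance of 0.1 step, in 100% of cases, which gave the reads counted. The authors' 2 other tables, of expression relative to VEH-WT with single mice left out, were not used.

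Groups came from the sample labels. With limma 3.58.1 under R 4.3.3, log2(normalized count + 1) was modelled over 17111 genes with a mean of at least 10, in one fit of 12 samples and 4 group means with an intensity trend. Tests were two-sided with Benjamini-Hochberg adjustment over all genes tested, and the interaction used the adjusted p alone. The procedure was tested on simulated data. With 3 mice per group, p values set each difference against a spread between mice estimated over all 4 groups, with information shared over genes. Correlations and motifs were computed with Python 3.11.15, numpy 2.4.6, pandas 2.3.3 and scipy 1.17.1. Of 17202 gene IDs, 17193 were found in GENCODE M21.

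The 9 genes, the lists and the tests were chosen with earlier results of these data known. From 3 of the lists 1 gene each is not reported here. Named beside the 9 genes were the gene of each list with the smallest p in VEH-CD against VEH-WT (none for the Arc partners), the 5 genes most like their mean and the 1 most like each. The alternatives changed the pseudocount (0.1 or 5), the filter (none, or 50 in place of 10), the scaling (quantile or median centring), the samples fitted (the compared groups alone), the variance model (without the trend, or with array weights), the single values kept (removal by a CV of 20%), the fold threshold and the replicate block, or left out each mouse. Weights gene by gene and voom on recovered reads were added after the values were seen.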

Additional observations from a re-analysis of the deposited data

Results flagged for a closer look

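In Arc, Srf, Gem and Ptger4, each of the 3 VERCUR-WT mice lay below the VEH-WT mean and each of the 3 VERCUR-CD mice lay above the VEH-CD mean, with means taken of log2 values. The interaction of genotype and treatment on the log2 scale was 2.83 in Arc (SE 0.98), 0.33 in Srf (SE 0.11), 1.21 in Gem (SE 0.38) and 0.75 in Ptger4 (SE 0.39), each with an adjusted p of 0.816 in limma, so no difference between genotypes passed the test. Arc, Gem and Ptger4 also showed the matching pattern for the deletion, lower in each VEH-CD mouse than the VEH-WT mean and higher in each VERCUR-CD mouse than the mean of log2 values in VERCUR-WT mice, with the same interaction values. For Arc the second of these patterns depends on VERCUR-WT 2 (1948 normalized counts), without which the interaction was 1.80. For Ptger4 both patterns were narrow. VERCUR-CD 1 had 42.75 normalized counts of Ptger4, below the arithmetic means of 43.03 in VEH-CD and 43.13 in VERCUR-WT mice. The Ptger4 interaction did not reach an unadjusted p under 0.05 in limma. Groups of 3 mice were too small for the check on single outlying mice.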

How the results depend on the processing

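Each comparison was repeated under up to 26 alternatives, 12 of which left out 1 mouse each. Of the 9 genes, 0 were called in VERCUR-WT against VEH-WT and in VERCUR-CD against VERCUR-WT mice under all 26. With single values removed, 2 (Arc and Homer1) were called in VEH-CD against VEH-WT, 1 (Arc) in VERCUR-CD against VEH-CD, 2 (Arc and Homer1) in VERCUR-CD against VEH-WT and 1 (Arc) in the interaction. With sample quality weights, 1 (Homer1) was called in VERCUR-CD against VEH-WT, and with weights gene by gene 1 (Homer1) in VEH-CD against VEH-WT. Leaving out 1 mouse gave 0 to 1 calls in VEH-CD against VEH-WT, with Arc called without VERCUR-WT 2, and 0 in the other 5. Of the list genes named in VEH-CD against VEH-WT, Egr4, Gem, Eif4ebp1, Plk3 and Fst were called with single values removed, and Egr4, Srf, Eif4ebp1 and Plk3 with weights gene by gene. Removing the value farthest from the median narrows the spread within a group by design, so p values under that setting are too small. The cause of the other changes was not tested. Of the log2 fold changes given for single genes, Nptx2 in VERCUR-CD against VEH-CD took the other sign in 3 of 26 alternatives (-0.15 to 0.21), Inhba in VEH-CD against VEH-WT was -0.05 without VEH-WT 1 (range without 1 mouse -0.05 to 0.10), and Arc in VERCUR-CD against VERCUR-WT was -0.19 with single values removed and -0.45 without VERCUR-WT 2 (range without 1 mouse -0.45 to 1.21). In VEH-CD against VEH-WT, 8 of the 9 genes kept their sign under all alternatives.

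The replicate numbers did not pair the mice: deviations of the 18 same-numbered pairs correlated from -0.347 to 0.267, with a median of 0.021. With the replicate block, 1 gene (Homer1, adjusted p = 0.0358 in limma) was called in VEH-CD against VEH-WT and none of the 9 in the other comparisons, and calls over all genes went from 44 to 40. Calls over all genes in VEH-CD against VEH-WT were 972 with single values removed, 354 with sample quality weights (not converged), 349 with weights gene by gene, 30 without the intensity trend and 24 to 71 without 1 mouse. In the other comparisons single values removed gave 241 (VERCUR-CD against VEH-CD), 649 (VERCUR-WT against VEH-WT), 448 (VERCUR-CD against VERCUR-WT), 840 (VERCUR-CD against VEH-WT) and 492 (interaction). Sample quality weights gave 1015, 0, 299, 1382 and 18, and weights gene by gene 6, 0, 46, 140 and 0, in the same order. The 4 correlated pairs became 0 on residuals from the group means and 0 without the 2 farthest mice, and remained the same 4 with median centring. The planned count-model tests on recovered reads were not run.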
